A study of Mus musculus with 8 samples.

Results

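The high mobility group (HMG) chromatin proteins were followed through the B cell response of the mouse in 6 member genes, Hmgb1, Hmgb2, Hmgb3, Hmgn1, Hmgn2 and Hmga1. The members were taken as all probe sets that the array annotation assigns to 1 of these symbols, and 5 probe sets of 12488 were found, 1 for each of 5 genes. No probe set of this annotation carries Hmga1, which is not analysed here. The probe sets of Hmgb2, Hmgb3 and Hmgn1 name 1 gene each. That of Hmgb1 also names the pseudogene Gm21596, and that of Hmgn2 also names Gm7931, Gm9525 and Gm6750, which are annotated as pseudogenes, so signal from these near copies cannot be separated and both readings are uncertain in that respect. The Hmgb2 set carries the suffix that the manufacturer gives where some rules of probe selection were dropped.

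HMG proteins are small, abundant non-histone proteins that bind DNA or nucleosomes without strong preference for a sequence. The HMGB proteins carry a pair of HMG boxes that bend DNA, the HMGN proteins bind the nucleosome core and counter compaction by linker histones, and HMGA1 binds AT-rich DNA through short hooks. In lymphoid cells HMGB1 and HMGB2 are known as cofactors of the RAG recombinase, and HMGB2 is known to be more abundant in dividing than in resting cells.

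The samples were pools of sorted B cells from QMxB6 F1 mice, 1 array per pool and 2 arrays in each of 4 groups. QM mice carry a rearranged heavy chain gene, with which most of their B cells bind the hapten NP. The share of NP-binding cells in the F1 cross is not given by these arrays. Germinal centre B cells (GL7+ B220+) came from 3 groups. The T-independent group (TI day 4, pools of 4 and 10 mice) received 30 µg of NP-Ficoll and was analysed on day 4. The carrier-primed T-dependent group (TD day 4, pools of 6 and 9 mice) was primed with 50 µg of alum-precipitated chicken gamma-globulin and heat-killed B. pertussis, was boosted with soluble NP-CGG (50 µg) after 5 weeks, and was analysed on day 4 after that. The unprimed T-dependent group (TD day 10, pools of 6 and 6 mice) received 50 µg of alum-precipitated NP-CGG with heat-killed B. pertussis and was analysed on day 10. Resting B cells (GL7- B220+, pools of 6 and 9 mice) came from unimmunised mice of the same cross. The day and the priming differ together between the T-dependent groups, so that day and priming cannot be told apart there.

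Values are intensities on a linear scale, as deposited, and array medians lay between 77 and 89. An intensity of 81, the median of all values, served as a floor, and lower readings were set to it before the log2 step. Of all probe sets, 7253 were above it on at least 2 arrays and were tested. All 5 HMG probe sets passed. Hmgb1 passed through its germinal centre arrays and a resting array at 82, and the other members were above the floor on all 8 arrays. Differences are on the log2 scale with their standard errors (SE), from limma across all 7253 probe sets, and a difference was called at a Benjamini-Hochberg adjusted p under 0.05. In mixed RNA of a pool, fewer expressing cells and less RNA per cell cannot be told apart. The 3 comparisons with resting B cells share the same 2 resting arrays.

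The promoters of the measured members are shown because each member read higher on all germinal centre arrays than on both resting arrays. The same held for 12.7% of all probe sets tested, the sizes of the rises differed, and shared regulation was not tested. They are the 250 bases before and 50 bases after the annotated start, 5′ to 3′ in the direction of the gene, from RefSeq (build GRCm38.p6). Capitals mark the CCAAT box, which the factor NF-Y binds, and the cell cycle gene homology region (CHR, TTTGAA or TTTAAA), a site known from genes of dividing cells. The windows lie at chr8:57511593-57511892 (plus strand) for Hmgb2, chr4:133967942-133968241 (minus strand) for Hmgn2, chr5:149053008-149053307 (minus strand) for Hmgb1, chrX:71555667-71555966 (plus strand) for Hmgb3 and chr16:96127676-96127975 (minus strand) for Hmgn1.
Hmgb2: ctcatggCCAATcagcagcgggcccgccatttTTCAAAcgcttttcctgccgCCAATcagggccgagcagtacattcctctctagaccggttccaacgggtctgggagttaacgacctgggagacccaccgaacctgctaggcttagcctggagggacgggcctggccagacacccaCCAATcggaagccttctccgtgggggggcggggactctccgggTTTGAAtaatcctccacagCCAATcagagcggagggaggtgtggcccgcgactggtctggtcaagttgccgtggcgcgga
Hmgn2: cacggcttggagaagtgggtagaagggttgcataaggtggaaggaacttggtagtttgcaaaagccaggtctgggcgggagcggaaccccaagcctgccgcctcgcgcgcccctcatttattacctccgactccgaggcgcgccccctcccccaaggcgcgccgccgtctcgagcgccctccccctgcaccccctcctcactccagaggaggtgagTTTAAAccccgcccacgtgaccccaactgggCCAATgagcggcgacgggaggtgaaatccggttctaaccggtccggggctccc
Hmgb1: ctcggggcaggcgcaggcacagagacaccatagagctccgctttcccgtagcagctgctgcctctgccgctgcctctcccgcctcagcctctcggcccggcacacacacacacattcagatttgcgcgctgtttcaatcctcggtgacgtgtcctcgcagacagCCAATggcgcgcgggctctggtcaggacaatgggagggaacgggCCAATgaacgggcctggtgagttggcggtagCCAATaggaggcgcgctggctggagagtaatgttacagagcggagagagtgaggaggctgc
Hmgb3: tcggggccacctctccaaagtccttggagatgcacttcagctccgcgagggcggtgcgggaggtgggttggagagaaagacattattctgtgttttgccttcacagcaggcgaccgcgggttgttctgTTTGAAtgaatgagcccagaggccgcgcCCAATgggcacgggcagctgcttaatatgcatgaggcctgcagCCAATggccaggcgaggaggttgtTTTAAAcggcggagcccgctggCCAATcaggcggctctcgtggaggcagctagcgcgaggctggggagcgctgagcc
Hmgn1: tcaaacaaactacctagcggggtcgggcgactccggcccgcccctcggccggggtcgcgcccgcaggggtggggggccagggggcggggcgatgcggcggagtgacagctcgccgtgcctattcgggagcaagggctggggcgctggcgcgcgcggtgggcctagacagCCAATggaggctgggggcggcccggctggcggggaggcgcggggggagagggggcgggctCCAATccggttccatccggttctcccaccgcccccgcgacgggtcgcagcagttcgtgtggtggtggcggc

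The CCAAT box was found in all 5 windows, each time on the strand of the gene. Hmgb2 held 4 such boxes, Hmgb3 and Hmgb1 held 3 each, Hmgn1 held 2 and Hmgn2 held 1. Among 32851 promoter windows of the same length in the whole table, searched on both strands, 37.4% held at least 1 CCAAT box, 11.7% at least 2, 3.37% at least 3 and 1.06% at least 4. CHR letters were found in the windows of Hmgb2 (2 matches), Hmgb3 (2) and Hmgn2 (1), and 27.6% of all windows held at least 1. The match nearest to the start began 30 bases before it in Hmgb2, 34 in Hmgn2 and 27 in Hmgb3, and in each case a CCAAT box followed, at 11, 3 and 5 bases before the start in the same order. No window of the 5 held an E2F site (searched as TTTGGCGC, TTTGCCGC, TTTCGCGC and TTTCCCGC, present in 2.26% of all windows). The GC box GGGCGG, present in 35.7% of all windows, was found 5 times in Hmgn1, 2 times in Hmgn2 and 1 time each in Hmgb2 and Hmgb3. Matches of different motifs did not overlap. Hmgb1 has a second annotated start, whose window held 0 CCAAT boxes and 4 GC boxes. The motifs were chosen with these sequences in view, windows differ in base composition, and a match describes the letters and not a bound site.

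**Figure D1:**
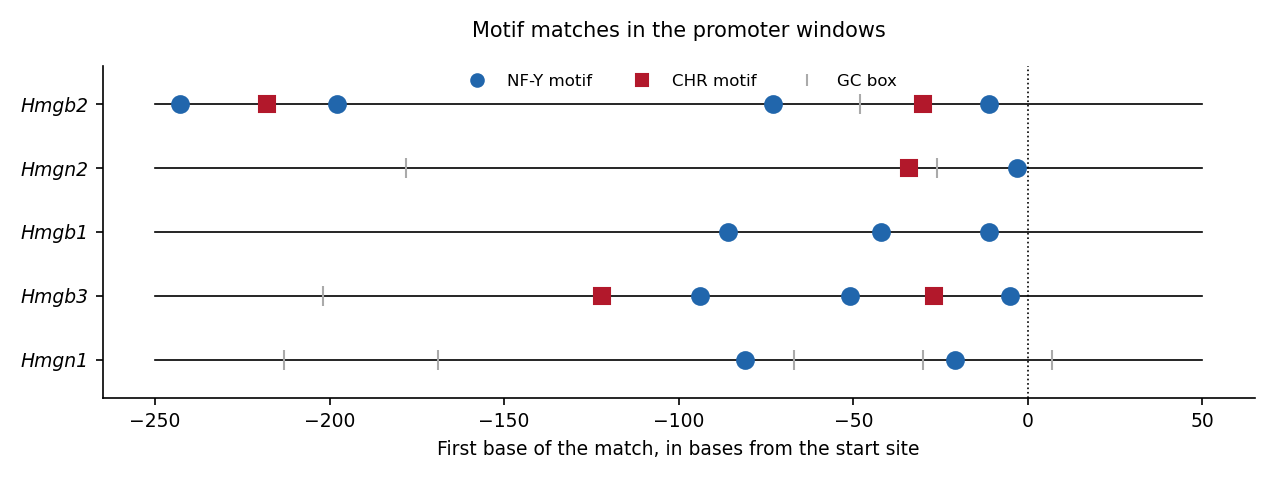
Positions of motif matches in the promoter windows of the 5 measured HMG genes. The x axis gives the first base of each match in bases from the annotated start (dotted line). Circles are CCAAT boxes (NF-Y motif), squares CHR letters and ticks GC boxes; Hmgb2 has 4 circles, and in Hmgb2, Hmgn2 and Hmgb3 a square lies 27 to 34 bases before the start.

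Hmgb2, the member with the largest rise among those above the floor on all arrays, read 3017 and 2113 in TI day 4, 3032 and 2772 in TD day 4 and 2911 and 2771 in TD day 10, against 179 and 185 in resting B cells. All 6 germinal centre arrays were far above both resting arrays, and the lowest of them was TI day 4 replicate 2. The rise over resting was 13.9-fold in TI day 4 (log2 difference 3.79 ± 0.21 SE, adjusted p = 0.00078). In TD day 4 it was 15.9-fold (3.99 ± 0.21, adjusted p = 0.00063) and in TD day 10 15.6-fold (3.96 ± 0.21, adjusted p = 0.00066). By the size of the log2 rise Hmgb2 stood at rank 7, 5 and 6 of the 7253 probe sets in the same order of groups.

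Hmgb3, the X-linked HMGB gene known from blood progenitors in the mouse, changed less. It read 783 and 756 in TI day 4, 669 and 672 in TD day 4 and 728 and 645 in TD day 10, against 417 and 340 in resting B cells. No germinal centre array overlapped with resting, and the TI day 4 arrays were the highest of all. Its rise was 2.04-fold in TI day 4 (1.03 ± 0.17 SE, adjusted p = 0.016), 1.78-fold in TD day 4 (0.83 ± 0.17, adjusted p = 0.034) as well as 1.82-fold in TD day 10 (0.86 ± 0.17, adjusted p = 0.027).

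Hmgb1, whose protein is also released from damaged cells as an alarm signal, was the member whose readings spread widest over the germinal centre arrays. It read 262 and 90 in TI day 4, 527 and 623 in TD day 4 and 583 and 445 in TD day 10, against 16 and 82 in resting B cells. The T-dependent arrays lay well above all others, and TI day 4 replicate 2 was close to the floor. One resting array was under the floor, so folds over resting are lower bounds. Its reading of 16 entered the model as 81, next to the other resting reading of 82, so the standard errors and adjusted p depend on the floor. Hmgb1 rose at least 7.03-fold in TD day 4 (2.81 ± 0.48 SE, adjusted p = 0.019) and at least 6.25-fold in TD day 10 (2.64 ± 0.48, adjusted p = 0.021). In TI day 4 the log2 difference of at least 0.91 ± 0.48 did not pass (adjusted p = 0.34, 95% confidence interval -0.24 to 2.07). The TI day 4 arrays decide that value, since it was 1.68 (adjusted p = 0.039) without TI day 4 replicate 2 and 0.14 (adjusted p = 0.85) without TI day 4 replicate 1.

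Hmgn2, a nucleosome-binding protein, was well above the floor on all arrays. It read 2417 and 2308 in TI day 4, 3394 and 2916 in TD day 4 and 3518 and 3328 in TD day 10, against 498 and 501 in resting B cells. Every germinal centre array read 2308 or more, and both TI day 4 arrays lay below all 4 T-dependent arrays. Hmgn2 rose 4.73-fold in TI day 4 (2.24 ± 0.15 SE, adjusted p = 0.0012), 6.30-fold in TD day 4 (2.65 ± 0.15, adjusted p = 0.00088) and 6.85-fold in TD day 10 (2.78 ± 0.15, adjusted p = 0.00072).

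Hmgn1, the close relative of Hmgn2, read 4577 and 4365 in TI day 4, 5215 and 5213 in TD day 4 and 4860 and 5153 in TD day 10, against 2999 and 3244 in resting B cells. Its germinal centre arrays were again all above resting, but its log2 differences were the smallest of the 5 members in each comparison with resting. The rise was 1.67-fold in TD day 4 (0.74 ± 0.15 SE, adjusted p = 0.030) and 1.60-fold in TD day 10 (0.68 ± 0.15, adjusted p = 0.035). In TI day 4 the log2 difference of 0.52 ± 0.15 did not pass (adjusted p = 0.087).

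**Figure D2:**
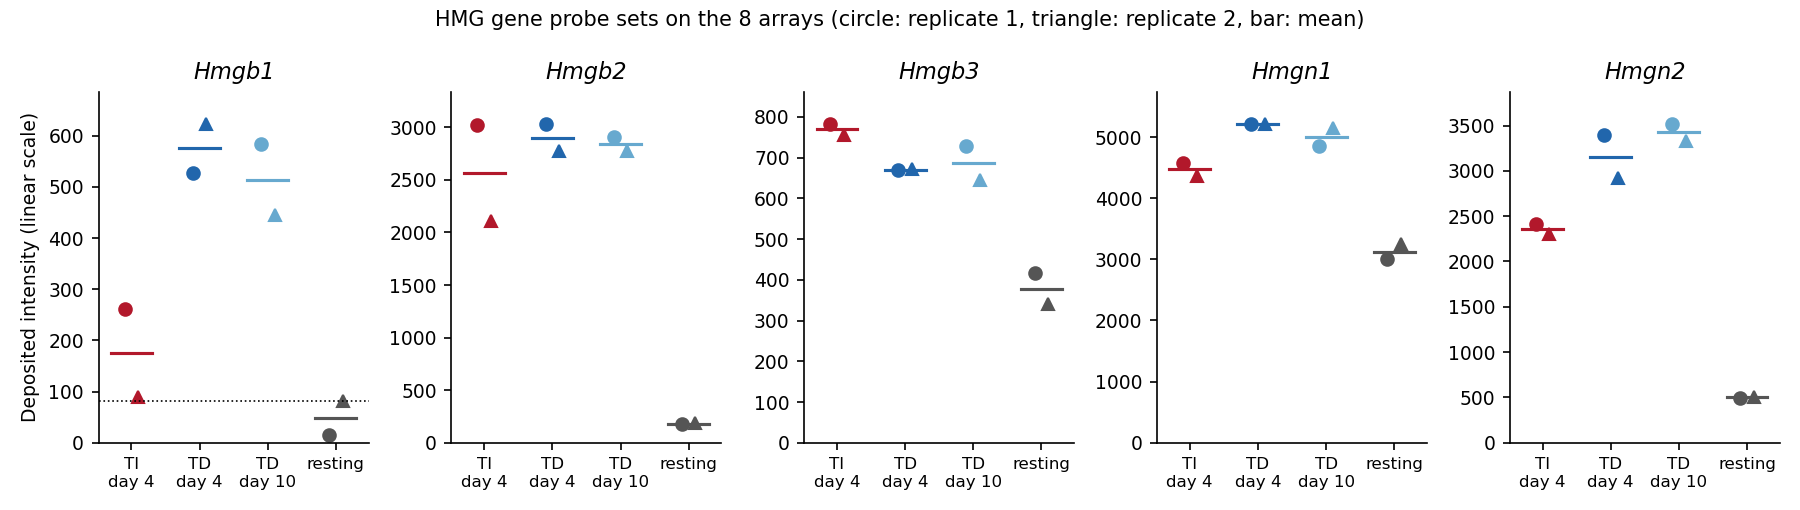
Deposited intensity (linear y axis from 0) of the 5 HMG probe sets on each of the 8 arrays. Circles are replicate 1, triangles replicate 2 and bars the mean of both, and the dotted line in the Hmgb1 panel is the floor of 81. All 6 germinal centre arrays lie above both resting arrays in each panel, and both TI day 4 arrays lie below all 4 T-dependent arrays for Hmgb1, Hmgn2 and Hmgn1, above them for Hmgb3, and overlap with them for Hmgb2.

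Counted together, 3 of 5 HMG probe sets rose over resting in TI day 4, against 5.42% of all probe sets tested. In TD day 4 it was 5 of 5, against 5.83% of all, and in TD day 10 5 of 5, against 6.45% of all. With arrays scaled to a common median the split of all calls in TD day 10 was 364 higher and 391 lower, where it was 468 higher and 322 lower as reported, and 4 HMG probe sets rose. In all 5 members every germinal centre array was above both resting arrays, which held for 12.7% of all probe sets tested. Taken group by group, arrays all above resting were found in 23.6% of all probe sets for TI day 4, 24.9% for TD day 4 and 27.8% for TD day 10. The counts of 5 rest on calls close to the threshold. Leaving out any 1 of the 8 arrays lowered the TD day 4 and the TD day 10 count to 3 or 2. In TD day 4 it was 2 without resting replicate 2, TD day 4 replicate 1 or TD day 4 replicate 2, and in TD day 10 it was 2 without resting replicate 2, TD day 10 replicate 1 or TD day 10 replicate 2. Hmgb2 and Hmgn2 passed against resting in all 3 groups under each of the 20 alternative settings, which include the 8 that leave out 1 array. Hmgb1 passed under 15 of them in TD day 4 and 13 in TD day 10, Hmgb3 under 9 and 10, and Hmgn1 under 9 and 6, and all kept an upward direction. With the 3' to 5' Gapdh ratio as a covariate the TD day 10 count was 2.

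**Figure D3:**
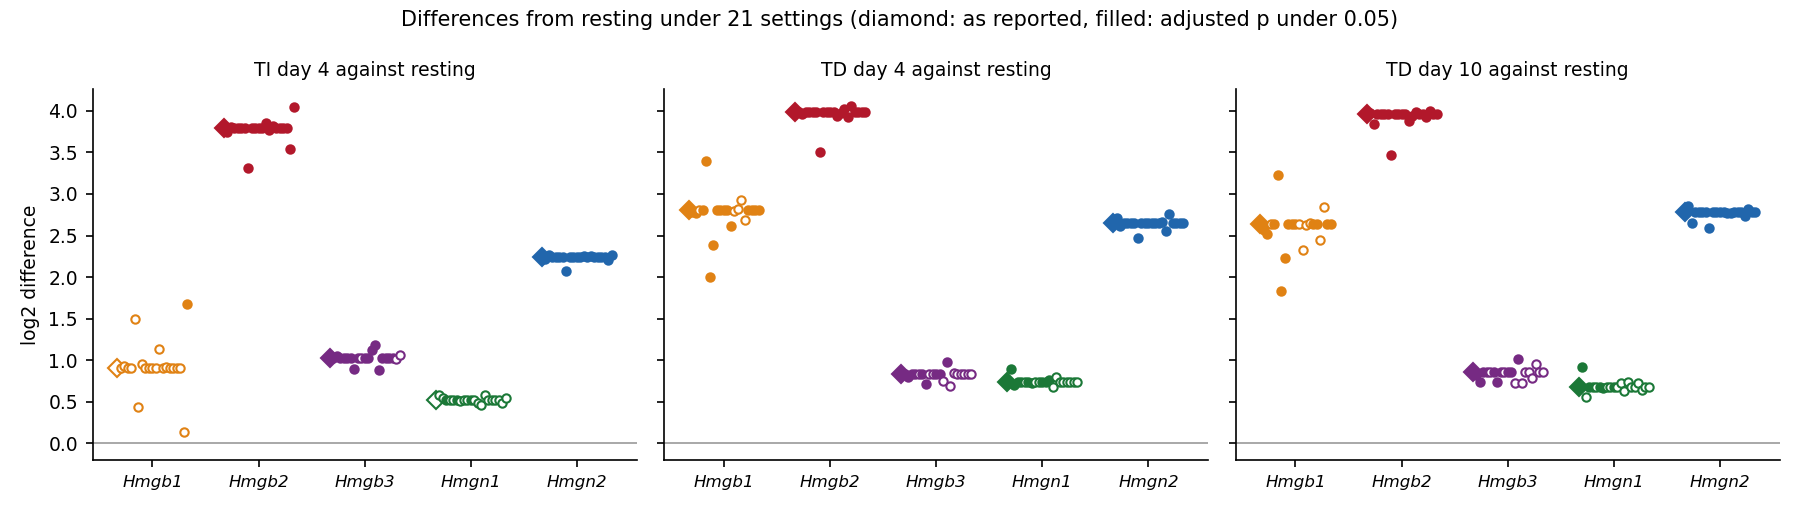
Log2 difference from resting B cells (y axis) of each HMG gene under the reported setting (diamond) and 20 alternatives (circles), in TI day 4, TD day 4 and TD day 10. Filled symbols passed at an adjusted p under 0.05. Hmgb2 and Hmgn2 are filled throughout, while Hmgb1, Hmgb3 and Hmgn1 lose their call under part of the settings.

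**Figure D4:**
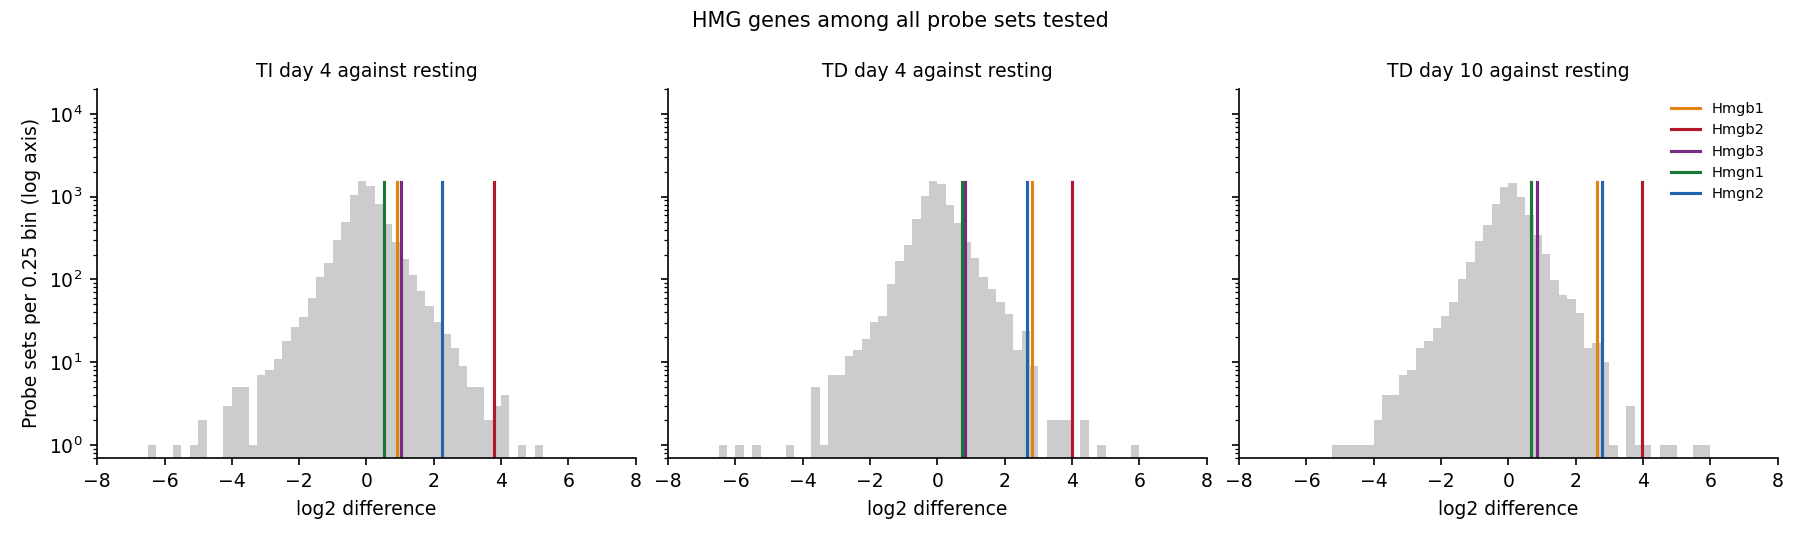
Histogram of the log2 difference from resting B cells over all 7253 probe sets tested (grey, number per bin on a log y axis) with the 5 HMG genes as coloured lines. Hmgb2 lies in the far right tail in all 3 groups, with Hmgn2 to its left, and Hmgb1 lies beside Hmgn2 in the T-dependent groups but nearer to 0 in TI day 4.

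Among the germinal centre groups, 0 of 5 HMG probe sets differed between TI day 4 and TD day 4 in limma, where 1.45% of all probe sets tested did. At an unadjusted p under 0.05 there were 2, Hmgb1 and Hmgn2, against 14.4% of all. Hmgb1 averaged 176 ± 122 in TI day 4 and 575 ± 67.9 in TD day 4 (n = 2 each, SD). The log2 difference of -1.90 ± 0.48 SE (95% confidence interval -3.06 to -0.74) did not pass (adjusted p = 0.14). Hmgn2 averaged 2362.5 ± 77.1 in TI day 4 and 3155 ± 338 in TD day 4 (SD, n = 2 each), and its log2 difference of -0.41 ± 0.15 SE (interval -0.79 to -0.04) did not pass either (adjusted p = 0.30). For Hmgb2 the interval was -0.70 to 0.30, for Hmgn1 -0.58 to 0.13 and for Hmgb3 -0.21 to 0.61, so that a change of the size these intervals span is not excluded by 2 arrays a group.

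The comparison of TI day 4 with TD day 10 had the same outcome, with 0 of 5 called in limma (2.40% of all probe sets) and 2 of 5 at an unadjusted p under 0.05 (17.2% of all). These 2 comparisons share the TI day 4 arrays. Hmgb1 averaged 176 ± 122 in TI day 4 and 514 ± 97.6 in TD day 10 (SD, n = 2 each), and the log2 difference of -1.73 ± 0.48 SE did not pass (adjusted p = 0.14). Without TI day 4 replicate 1 it was -2.50 and was called (adjusted p = 0.043), and over the 20 alternatives the adjusted p ranged from 0.043 to 0.60. Hmgn2 averaged 2362.5 ± 77.1 in TI day 4 and 3423 ± 134 in TD day 10, a log2 difference of -0.53 ± 0.15 SE (adjusted p = 0.15). In 3 of 5 members, Hmgb1, Hmgn2 and Hmgn1, each TI day 4 array read lower than each T-dependent array. Arrays that do not overlap in this direction were found in 26.3% of all probe sets for TD day 4 and 31.5% for TD day 10. Hmgb3 read higher on both TI day 4 arrays than on all T-dependent arrays, with log2 differences of 0.20 ± 0.17 (adjusted p = 0.71) and 0.17 ± 0.17 SE (adjusted p = 0.67) from TD day 4 and TD day 10. Arrays apart in that direction were found in 23.1% and 21.3% of all probe sets.

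Between TD day 10 and TD day 4, 0 of 5 HMG probe sets differed in limma, and 0.00% of all probe sets tested did. At an unadjusted p under 0.05 the count was also 0 of 5, against 5.14% of all. Hmgn1 was the 1 member whose arrays did not overlap, lower in TD day 10, as 17.0% of all probe sets were. The log2 differences lay between -0.17 ± 0.48 SE for Hmgb1 and 0.12 ± 0.15 for Hmgn2. The widest 95% confidence interval was that of Hmgb1, -1.33 to 0.99, and for the other members the bounds lay within -0.53 and 0.50.

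**Figure D5:**
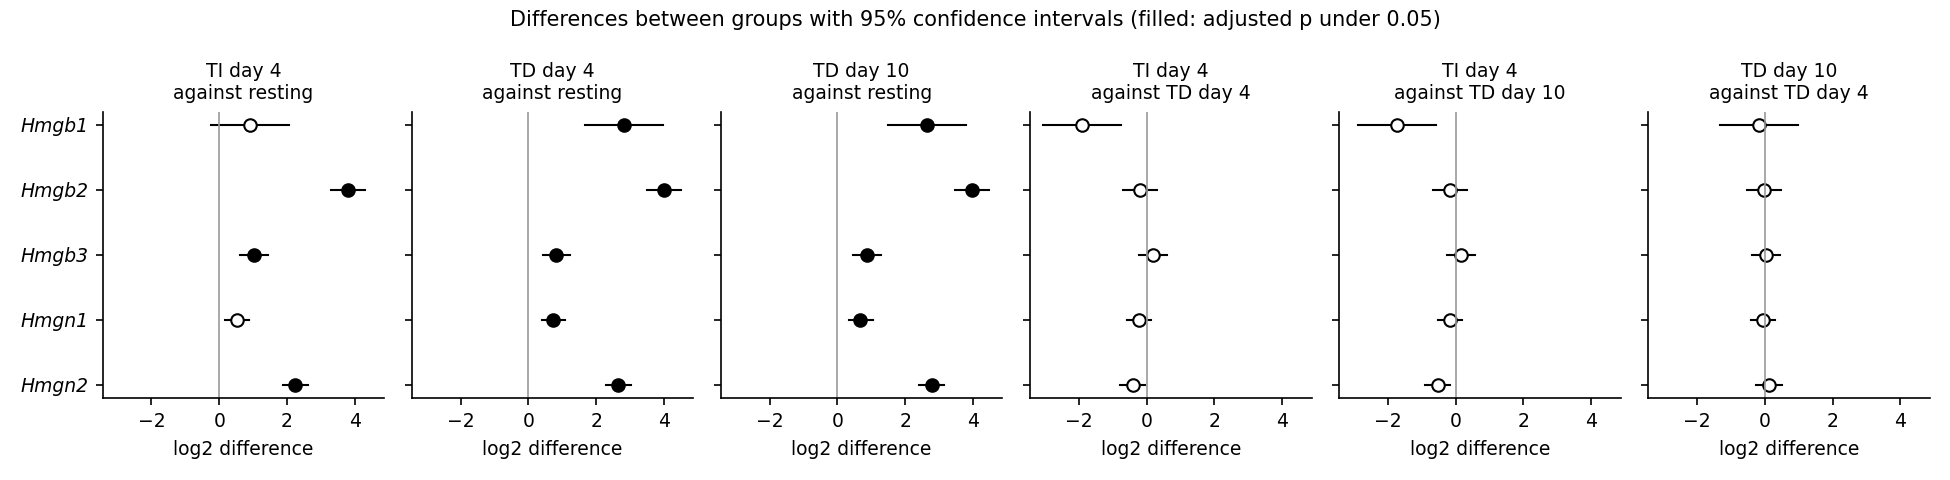
Log2 difference (x axis, first-named group minus the second) with its 95% confidence interval for the 5 HMG genes in the 6 comparisons, filled where the adjusted p was under 0.05. Filled points occur in the comparisons with resting B cells, and the intervals of Hmgb1 and Hmgn2 lie left of 0 in both comparisons of TI day 4 with a T-dependent group.

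In the order of levels, Hmgb1, Hmgn2 and Hmgn1 ran from T-dependent over TI day 4 to resting, Hmgb2 arrays overlapped among germinal centre groups, and Hmgb3 was highest in TI day 4. No pair of germinal centre groups differed past the threshold for any member, so the step that passed was the one from resting, with the exceptions of Hmgb1 and Hmgn1 in TI day 4. Over the 6 germinal centre arrays the highest reading was 6.92 times the lowest for Hmgb1, 1.52 times for Hmgn2, 1.43 times for Hmgb2, 1.21 times for Hmgb3 and 1.19 times for Hmgn1.

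Profiles were also compared by the root mean square distance of log2 values over the 8 arrays after each probe set was centred on its own mean. Values were not scaled, so the distance reflects the size of a change as well as its pattern. Between members the shortest distance was that of Hmgb3 and Hmgn1 (0.228) and the longest that of Hmgb2 and Hmgn1 (1.42). The log2 differences of Hmgb3 and Hmgn1 between TI day 4 and TD day 4 had opposite signs (0.20 ± 0.17 and -0.22 ± 0.15 SE, neither called). Among 3954 probe sets of other genes above the floor on all arrays, the one most like Hmgb2 was Pclaf (distance 0.274), which encodes a partner of the replication clamp, before a probe set of the tubulin gene Tubb5 (0.609) and Uhrf1 (0.624), a factor of DNA methylation maintenance. Pclaf averaged 1229 ± 195 in TI day 4, 1827.5 ± 165 in TD day 4, then 1708.5 ± 67.2 in TD day 10, against 131.5 ± 38.9 in resting B cells (SD, n = 2 each). Most like Hmgn2 were the nucleotide kinase gene Cmpk1 (0.0736), Rpa3 (0.0882), a subunit of the single-strand binding protein of replication, and the helicase subunit gene Mcm4 (0.116).

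The profile of Hmgb1 was nearest to Tmpo (0.391), which encodes a nuclear lamina protein, to Gcsam (0.456), a signalling adaptor of such B cells, and to the nucleolin gene Ncl (0.503). Tmpo averaged 142.5 ± 62.9 in TI day 4, 397.5 ± 57.3 in TD day 4, then 437.0 ± 21.2 in TD day 10, against 102.5 ± 2.12 in resting B cells (SD, n = 2 each), so that it too read lower in TI day 4 than in the T-dependent groups. Hmgb3 was nearest to Odc1 (0.0949), which encodes ornithine decarboxylase, to Bub3 (0.114), a spindle checkpoint gene, and to another Tubb5 probe set (0.116). Hmgn1 was nearest to the proteasome gene Psmb1 (0.0587), Znrd1 (0.0596) and Ywhaq (0.0708). These distances describe 8 arrays of 4 groups and were not tested, and those of Hmgb1 depend on the floor, which replaced its resting reading of 16.

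Genes that work with HMG proteins were counted from lists chosen with earlier results of these data known. The list of histone chaperones and nucleosome assembly, with 14 of 16 genes tested, had 4 genes higher than resting in TI day 4 and 6 each in TD day 4 and TD day 10, against 5.42%, 5.83% and 6.45% of all probe sets. There were 0 lower in each, against 3.98%, 3.58% and 4.44% of all. Its median log2 difference was 0.60, 0.83 and 0.60 in the same order, against -0.02, -0.02 and 0.04 over all probe sets. Nap1l1, a chaperone that carries H2A and H2B, read 900 and 731 in TI day 4, 1389 and 1269 in TD day 4 and 1186 and 1413 in TD day 10, against 219 and 328 in resting B cells. It rose 3.03-fold, 4.95-fold and 4.83-fold (adjusted p = 0.013, 0.0043 and 0.0043). Rbbp7, a histone-binding subunit of several chromatin complexes, rose 2.13-fold, 3.01-fold and 3.02-fold (adjusted p = 0.0082, 0.0027 and 0.0026). In the list of other proteins with an HMG box, such as the SOX and TCF factors, 0 of 12 tested genes of 28 listed passed in limma in each of the 6 comparisons. Of all probe sets 9.40%, 9.42% and 10.9% passed against resting, so that 0 of 12 is close to the background. The list had a median log2 difference from resting of -0.07, -0.15 and -0.03 in the order above.

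Of the linker histones, which compete with HMGN proteins for nucleosomes, 7 listed genes were measured and 2 of these were tested. H1f6, the testis variant by its textbook description, was 1.74-fold lower than resting in TI day 4 (adjusted p = 0.026), where 3.98% of all probe sets were lower, and its log2 differences of -0.62 ± 0.15 SE in TD day 4 and -0.59 ± 0.15 in TD day 10 did not pass (adjusted p = 0.056 and 0.062). Hmgn5, the 1 tested gene of the remaining HMGN and HMGA family, read 322 and 358 in TI day 4, 255 and 523 in TD day 4 and 364 and 337 in TD day 10, against 250 and 263 in resting B cells, and did not pass in any of the 6 comparisons.

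In the SET complex, an assembly that contains HMGB2 and acts on damaged DNA, 6 of 7 genes were tested. Higher than resting were 1, 1 and 2 of them in TI day 4, TD day 4 and TD day 10. Of all probe sets 5.42%, 5.83% and 6.45% were higher. The list's median log2 difference was 0.0, 0.01 and 0.13, against -0.02, -0.02 and 0.04 over all probe sets. Anp32a, Nme1 and Nme2 passed in no comparison. Anp32b, a histone-binding acidic protein, rose over resting 2.90-fold in TI day 4, 3.06-fold in TD day 4 as well as 2.58-fold in TD day 10 (adjusted p = 0.027, 0.023 and 0.036). Set itself rose 1.92-fold in TD day 10 (adjusted p = 0.042), and in TD day 4 and TI day 4 its log2 differences of 0.81 ± 0.21 and 0.53 ± 0.21 SE did not pass (adjusted p = 0.072 and 0.21). Apex1, the abasic site endonuclease of the complex, read 198 and 225 in TI day 4, against 473 and 482 in TD day 4, 508 and 518 in TD day 10 and 491 and 448 in resting B cells. It was 2.26-fold lower than TD day 4, 2.43-fold lower than TD day 10 and 2.22-fold lower than resting (adjusted p = 0.028, 0.017 and 0.0082), where 0.717% of all probe sets were lower than TD day 4 and 1.20% lower than TD day 10. It was the 1 gene of this list called between germinal centre groups. With the 3' to 5' Gapdh ratio as a covariate, 0 probe sets of the whole array were called for TI day 4 against TD day 4 (105 as reported). The call of Apex1 against TD day 4 was therefore lost under that setting. For TI day 4 against TD day 10 the covariate left 7 calls (174 as reported). Of the receptors and partners of extracellular HMGB1, 4 of 10 were tested, and the 1 call was Cd24a, a surface glycoprotein, 1.63-fold higher than resting in TD day 4 (adjusted p = 0.044). There, 5.83% of all probe sets were higher. Its log2 differences of 0.66 ± 0.16 SE in TI day 4 and 0.53 ± 0.16 in TD day 10 did not pass (adjusted p = 0.053 and 0.092). Rag1, the 1 tested gene of the RAG recombinase, did not pass in any of the 6 comparisons.

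Most tested genes of cell division were also higher than in resting B cells. Of 14 tested genes of DNA replication, 12 were higher than resting in both TI day 4 and TD day 10 and 11 were higher in TD day 4, with 0 lower. Of all probe sets 5.42% were higher for TI day 4, 6.45% for TD day 10 and 5.83% for TD day 4. Of 13 tested genes of G2 and mitosis, 10 were higher in each group, with 0 lower. The median log2 difference was 1.70, 1.87 and 1.92 for replication and 2.10, 2.46 and 2.08 for mitosis in the order TI day 4, TD day 4 and TD day 10. Between germinal centre groups 0 genes of both lists passed in limma, where 1.45% of all probe sets did for TI day 4 against TD day 4, 2.40% for TI day 4 against TD day 10 and 0.00% for TD day 10 against TD day 4. For TI day 4 against TD day 4 the median log2 difference was -0.32 for replication, 0.21 for mitosis and -0.22 for the HMG probe sets. Against TD day 10 it was -0.39, 0.16 and -0.17 in the same order, so the mitosis list lay on the other side of 0. The part of cell division in the level of the HMG genes was not tested.

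The sorted populations were checked against marker genes. Of 8 B cell markers 7 were measured, and 0 of them were under the floor on both arrays of a group. Their summed intensity was 24609 to 25127 in TI day 4, 23529 to 25651 in TD day 4, then 21533 to 22584 in TD day 10, against 31981 to 35904 in resting B cells. Germinal centre markers (6 of 7 measured) summed to 3506 to 3662, 4525 to 5058 and 5244 to 5358 in the same order, against 1968 to 2521 in resting B cells. Of 5 tested, 2, 2 and 4 were higher than resting, against 5.42%, 5.83% and 6.45% of all probe sets. Gcsam in TI day 4 (156 and 131) was near resting (154 and 101) and was called 4.94-fold lower than in TD day 4 (adjusted p = 0.028 in limma). Efnb1 read highest in TI day 4 (323 and 361). Red cell markers (5 of 9 measured, Epb42 under the floor in every group and Alas2 in the germinal centre groups) summed to 2333 to 2866, 713 to 1038 and 867 to 1277, against 22674 to 25147 in resting B cells. Hba-a1 and Hbb-b2 carried the resting sum, while Slc4a1 carried that of TI day 4 with 1700 and 2317, against 724 and 707 in resting B cells. In limma Slc4a1 was 2.77-fold higher in TI day 4 than resting (adjusted p = 0.0094). It was 5.09-fold higher than in TD day 4 and 8.41-fold higher than in TD day 10 (adjusted p = 0.0099 and 0.004). Neutrophil markers (8 of 8, Ngp under the floor in every group) summed to 1842 to 2823, 1734 to 1915 and 1894 to 2527, against 6542 to 6675. Macrophage markers (8 of 8, Adgre1 under the floor in every group) summed to 4915 to 5716, 1949 to 2223 and 1346 to 1942, against 2724 to 2843. Apoe carried the TI day 4 sum with 4213 and 3371, against 434 and 775 in resting B cells, while C1qc and Lyz2 were under the floor on the germinal centre arrays and C1qa and C1qc were at least 6.34-fold and 2.15-fold lower in TI day 4 than resting (adjusted p = 0.0028 and 0.0071). Plasma cell markers (5 of 5) summed to 9726 to 12923, 3246 to 3932 and 2581 to 3288, against 1919 to 1965. Sdc1 was under the floor on both arrays outside TI day 4 and Prdm1 outside TD day 10, and Jchain alone read 7347 and 9356 in TI day 4, against 803 and 764 in resting B cells. T cell markers (6 of 8 measured) summed to 453 to 494, 504 to 749 and 514 to 834, against 427 to 461 in resting B cells. Cd3e, Cd3d, Cd8a and Cd8b1 were under the floor in every group. Cd4 was above the floor in every group, with 366 and 382 in TI day 4 and 292 and 339 in resting B cells. It read 660 and 422 in TD day 4 and 425 and 710 in TD day 10, and passed in no comparison. The 3' to 5' ratio of Gapdh signal, a sign of RNA quality, was 1.24 and 1.68 in TI day 4, 0.981 and 0.954 in TD day 4 and 0.836 and 0.896 in TD day 10, against 0.867 and 1.59 in resting B cells. The highest ratio was that of TI day 4 replicate 2, the array with the lowest germinal centre reading of Hmgb1, Hmgb2, Hmgn1 and Hmgn2. The part of other cells in the HMG readings was not tested.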

How the data were processed

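RNA of 8 pools of sorted B cells, extracted with RNAzol per the labels' protocols, was hybridised to Affymetrix mouse arrays. The table holds linear intensities as deposited by the authors. How the scanner signals were scaled and background-corrected is not given in the sources used here. In the table, 30.1% of readings did not exceed 0, and after trimming 2% at both ends an array's mean was about 200.2, so background appears subtracted and arrays scaled to a common mean. A change in total RNA per cell would not show after such scaling. Depth has no meaning for arrays, and their number, 2 a group, limits precision. The labels call the replicates biological.

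Values were used as deposited, set to a floor at the 50th percentile (81) and log2-transformed. Of 12488 probe sets, 66 controls were left out and 7253 above the floor on at least 2 arrays were tested in limma 3.58.1 (R 4.3.3), with 1 model of the 4 groups (4 residual degrees of freedom, 2.20 from the prior), two-sided, p-values being adjusted by Benjamini-Hochberg within each comparison across the whole array. Probe sets naming 1 gene numbered 10855, several 396 and none 1237. Symbols were updated through RefSeq gene IDs. Lists use each gene's brightest tested probe set, and the text names at most the 3 with the smallest p per comparison. Marker sums take readings under 0 as 0. Promoter sequences are those of RefSeq (GRCm38.p6), where all 6 members matched. The method was also run on simulated data with independent noise and no differences in RNA quality, and no result given here rests on that run. Members and lists were chosen with earlier results of these data known. The alternatives were other scalings, filters, floors, priors, array weights, a covariate, a replicate block, only the arrays compared, and leaving out each array.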

Additional observations from a re-analysis of the deposited data

How the results depend on the processing

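Against resting B cells every HMG difference kept its upward direction under all 20 alternatives. The count of HMG probe sets called in TD day 4 against resting, 5 as reported, was 3 with the floor at the 40th percentile, 3 with the replicate block and 3 with only the arrays compared. In TD day 10 against resting, also 5, it was 3 with the floor at the 40th percentile, 3 with only the arrays compared, 3 with array weights and 2 with the Gapdh ratio as a covariate. With 1 array left out in turn, the lone array of its group being assumed to vary like the other groups, the count ranged from 2 to 3 in TD day 4 and in TD day 10, and from 0 to 1 for TI day 4 against TD day 10. The cause was not tested, other than that fewer arrays leave fewer degrees of freedom. The probe sets called over the whole array ranged from 192 to 730 in TD day 4 (683 as reported), 266 to 820 in TD day 10 (790) and 213 to 726 in TI day 4 (682) against resting. They ranged from 0 to 261 for TI day 4 against TD day 4 (105), 4 to 292 for TI day 4 against TD day 10 (174) and 0 to 14 for TD day 10 against TD day 4 (0).

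Directions turned where differences were near 0. Between TD day 10 and TD day 4, Hmgn1 was at 0.04 with quantile normalization, and Hmgb3 at 0.00 with it, -0.05 with a common median and -0.02 with the Gapdh ratio as a covariate. With 1 array left out, that comparison ranged from -0.36 to 0.02 for Hmgb1, -0.09 to 0.04 for Hmgb2 and -0.06 to 0.12 for Hmgb3, and Hmgb2 ranged from -0.46 to 0.06 for TI day 4 against TD day 4 and from -0.43 to 0.09 for TI day 4 against TD day 10. For equally numbered replicates, correlations of the deviation between groups ranged from -0.217 to 0.121. With 2 arrays a group, these values cannot decide whether such replicates share more than a number, and this was not tested further. Beyond the TD day 4 count of 3, the replicate block gave a TD day 10 count of 4 (5 as reported) and a TI day 4 count of 3 (3 as reported). Over the whole array it gave 46 calls for TI day 4 against TD day 4 (105 as reported). With 2 arrays a group, signals near the floor, as those of Hmgb1 in resting and TI day 4, are the least well measured.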
